A study of Homo sapiens with 18 samples.

Results

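The 9 genes described here belong to 2 families, many of whose members are switched on by interferons: the guanylate-binding proteins GBP1, GBP2, GBP3, GBP4 and GBP5, and the cytidine deaminases APOBEC3B, APOBEC3C, APOBEC3F and APOBEC3G. They were taken by name from the count table, where each name matched 1 gene of 57500, and all 9 passed the filter on low counts that left 16994 genes to test. GBP4 and GBP5 passed that filter only because of the groups in which they were high, so counts of called members include genes whose level is near 0 elsewhere.

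RNA-seq was made from IMR90, an established line of fibroblasts from human fetal lung, in 6 groups of 3 libraries. Proliferating cells (Prol) were set beside cells made senescent by X-ray irradiation (Sen (IR)), and beside irradiated cells whose mitochondria had been cleared with the uncoupler CCCP (Sen (IR) + CCCP), which works in these cells because they carry a construct that marks damaged mitochondria for removal. The other 3 groups were cleared cells that also received sodium acetate (Sen (IR) + CCCP + acetate), transfected mitochondrial DNA (Sen (IR) + CCCP + mtDNA), or both (Sen (IR) + CCCP + acetate + mtDNA, here the combination). None of the 6 groups was labelled as given the transfection reagent alone, so mtDNA and its carrier cannot be told apart. Nor was any labelled as given CCCP without clearance, so the uncoupler itself and the loss of mitochondria cannot be told apart. The study describes acetate as given repeatedly from the time of clearance and mtDNA as transfected later, so their exposures differed in length. The labels do not say how the 3 libraries of a group relate, but the study describes its replicates for these data as independent experiments. The comparisons ask how these genes differ in senescent cells, after clearance with CCCP, and when acetate and mtDNA are then given.

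Guanylate-binding proteins are large GTPases of the dynamin superfamily. They assemble on the membranes of bacteria and parasite vacuoles in the cytosol and help inflammasome caspases to act there, and their genes are classic targets of interferon gamma, in part through IRF1. APOBEC3 enzymes turn cytidine to uridine in single-stranded DNA. APOBEC3F and APOBEC3G restrict retroviruses and respond to interferon, whereas APOBEC3B is nuclear, is held down outside the cell cycle by the DREAM repressor complex, and is known as a source of mutations in tumours.

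The libraries held 24624886 to 46224280 counts on genes. Transcripts of the 13 protein genes of mtDNA made up 1.75% to 2.89% of counts in Prol and Sen (IR), and 0.114% to 0.138% after CCCP alone or with acetate, so the clearance is visible in the labelled libraries. With mtDNA alone the share was 0.0519%, 0.0461% and 0.0534%, below that of the cleared libraries without mtDNA. Replicate 2 of the combination stood apart from the other 2: mtDNA genes took 0.237% of its counts against 0.0640% and 0.0624%, and interferon beta (IFNB1) had 30 counts against 4 and 6. Since all 6 groups share 1 estimate of spread, this library bears on every comparison, and results that change without it are given both ways. The 10 fibroblast markers were detected in every group, with summed levels of 8103 to 12130 CPM (counts scaled to the library's total) in the 4 CCCP groups, 23960 to 28940 in Sen (IR) and 43120 to 47360 in Prol. The 10 white blood cell markers summed to at most 1.24 CPM in any library, and 1 to 6 of them were at 0 in each group. The 4 endothelial markers summed to at most 2.675 CPM. The 5 epithelial markers summed to 99.5 to 106.3 CPM in Prol and 26.06 to 41.44 CPM in the other groups. Whether the lower fibroblast sum plays a part in the results was not tested. In bulk RNA, fewer cells that use a gene and less RNA per cell cannot be told apart.

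In the GENCODE 44 annotation of GRCh38 the 5 GBP genes lie side by side on the minus strand of chromosome 1: GBP3 at chr1:89006679-89022894, GBP1 at chr1:89051882-89065360, GBP2 at chr1:89106132-89150456, GBP4 at chr1:89181144-89198942 and GBP5 at chr1:89256189-89272860. The 4 APOBEC3 genes lie on the plus strand of chromosome 22: APOBEC3B at chr22:38982347-38992804, APOBEC3C at chr22:39014257-39020352, APOBEC3F at chr22:39040604-39055972 and APOBEC3G at chr22:39077067-39087743. All 9 code for proteins, and counts were summed over their exons. Copies within each family are similar enough to matter: of all stretches of 100 bases in the annotated transcripts, 17.1% of those of APOBEC3B also occur in another gene (mostly APOBEC3A and APOBEC3D), as do 7.21% of those of GBP2 (in GBP7), 6.78% of APOBEC3F, 3.54% of APOBEC3G, and between 0% and 1.11% of the other 5. Reads that lie wholly in such stretches may map to more than 1 place and then go uncounted, and how many were lost was not measured. In GENCODE 44, GBP2 and APOBEC3C share exon bases with another gene on the same strand, and GBP4, GBP5 and APOBEC3B with an antisense gene. Over all 18 libraries APOBEC3B held 1683 counts and its relative APOBEC3D 867, whereas GBP7 held 2, APOBEC3A 3, the antisense APOBEC3B-AS1 2 and GBP1P1 237. Of the 9, APOBEC3B and GBP2 shared the largest part of their stretches, which makes their levels less certain. Levels of GBP4 and GBP5 are limited by low counts.

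Promoter sequence was at hand in RefSeq (GRCh38.p14) for 3 of the 9 genes, GBP1, GBP3 and GBP4, as windows from 250 bases before to 50 bases after the transcription start. These were the only member windows at hand and were not picked by response. They are shown because interferon acts through short DNA letters that can be looked for. The core letters of the interferon-stimulated response element, GAAANNGAA (N is any base), occur on either strand in 8.11% of all 35116 promoter windows, and all 3 GBP windows held them. The gamma-activated site core TTCNNNGAA, found in 7.66% of windows, was in that of GBP3 only, and the kappa-B core GGGNNTTTC, found in 4.78%, in that of GBP4 only. The 6 letters TTTGAA of the cell cycle homology region that DREAM can bind, found in 15.2%, were in those of GBP1 and GBP3. In the 90-base stretches below, written 5′ to 3′ on the strand of the gene, capitals mark the response element cores (which read in reverse on this strand), the gamma-activated site core of GBP3 and the kappa-B core of GBP4.
GBP1: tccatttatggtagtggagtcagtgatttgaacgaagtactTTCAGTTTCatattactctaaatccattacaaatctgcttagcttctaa
GBP3: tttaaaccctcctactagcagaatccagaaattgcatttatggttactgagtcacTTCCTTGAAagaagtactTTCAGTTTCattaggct
GBP4: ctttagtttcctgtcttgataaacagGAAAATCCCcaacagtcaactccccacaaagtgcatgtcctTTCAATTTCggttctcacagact
These stretches are chr1:89065286-89065375 for GBP1, chr1:89022847-89022936 for GBP3 and chr1:89198923-89199012 for GBP4, all on the minus strand. The stretches of GBP1 and GBP3 share an unbroken run of 19 bases that contains the response element, whereas the longest run either shares with GBP4 is 6 bases. The response element of GBP1 lies at bases -126 to -118 from the RefSeq start, that of GBP3 at bases 4 to 12 and that of GBP4 at bases -3 to 6. GENCODE places the start of GBP1 152 bases further upstream and that of GBP3 28 bases further upstream, so these distances depend on the annotation. GBP1 had a second match at bases 38 to 46. A match is a description of letters and not of a bound site.

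Per length, measured as TPM (counts scaled to gene length and to the library's total), 2 genes carried most of the GBP transcripts and 1 carried most of the APOBEC3 transcripts. In Prol, the 5 GBP genes summed to 323 ± 3.72 TPM (SD, n = 3), of which GBP1 made up 50.4%, GBP3 36.6% and GBP2 12.7%. The sum was 290 ± 6.99 TPM in Sen (IR), 119 ± 4.64 TPM in Sen (IR) + CCCP and 119 ± 9.57 TPM with acetate. With mtDNA it was 328 ± 56.0 TPM, with 3 libraries between 265 and 372 TPM, all above the CCCP libraries. In the combination it was 188, 396 and 191 TPM, so its mean of 258 TPM rests on replicate 2. The make-up differed between groups, also where the sums were alike: GBP3 took 50% ± 2.24 (SD, n = 3) of GBP TPM in Sen (IR), 82.8% ± 1.11 after CCCP, 67.6% ± 1.40 with acetate and 55.6% ± 3.33 with mtDNA. GBP2 held 12% ± 0.726 of the sum in Sen (IR) but 0.747% ± 0.200 with mtDNA. GBP4 stayed at or below 3.71 TPM and GBP5 below 1 TPM on average in every group. TPM sums of cleared cells against Sen (IR) depend on the scaling. On log2(TPM + 1), the median change of all genes exceeded that fitted to counts, by 0.329 after CCCP and 0.277 with mtDNA. In CPM, GBP1 averaged 137.5 in Sen (IR) and 136.8 with mtDNA, and GBP3 156.4 and 152.7.

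The 4 APOBEC3 genes summed to 176 ± 5.83 TPM in Prol, 190 ± 5.91 in Sen (IR), 190 ± 4.25 after CCCP and 203 ± 9.81 with mtDNA, but to 120 ± 2.12 with acetate and 121 ± 8.36 in the combination. The sums of the 6 libraries given acetate, 112 to 128 TPM, did not overlap those of the other 12, 169 to 213 TPM. APOBEC3C, a single-domain enzyme, made up 84.6% to 94.1% of the APOBEC3 TPM of every group. APOBEC3B held 7.66% in Prol, 2.86% in Sen (IR) and 0.889% with acetate. The like sums of Sen (IR) and CCCP hold for TPM only: in CPM, APOBEC3C averaged 122.9 in Sen (IR) and 90.93 after CCCP.

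**Figure D1:**
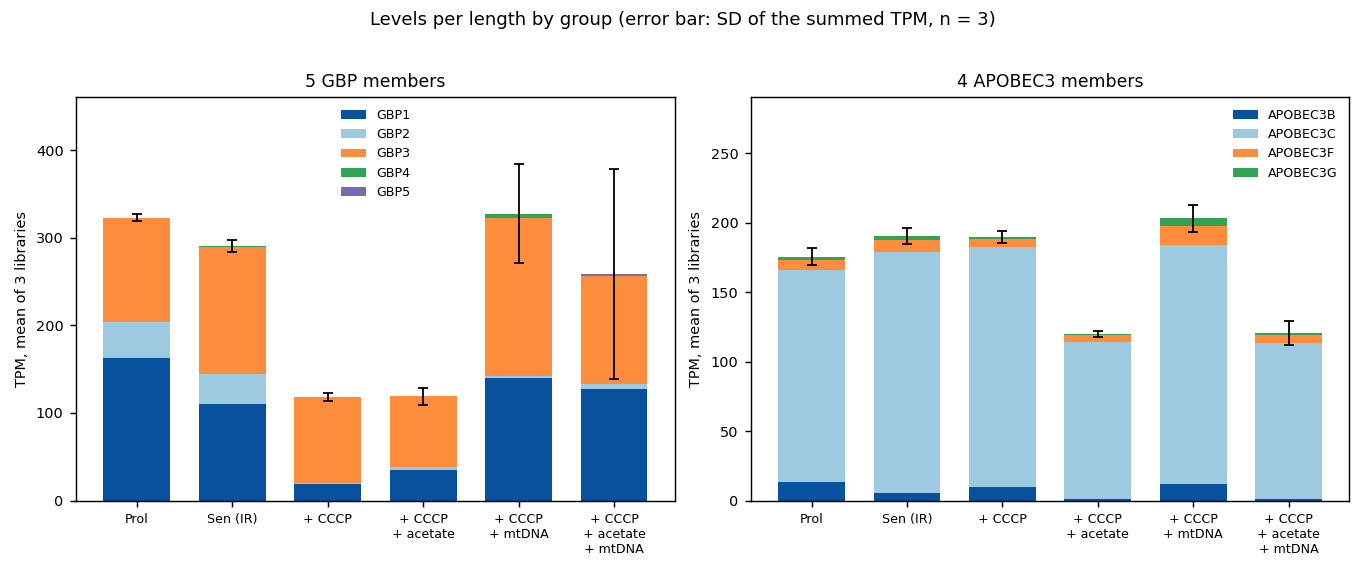
Mean TPM (vertical axis, linear scale) of the 5 GBP genes (left) and the 4 APOBEC3 genes (right) in the 6 groups, stacked by gene, with error bars for the SD of the sum over 3 libraries. The GBP sum is 119 TPM after CCCP and 328 TPM after CCCP and mtDNA, and the APOBEC3 sum is lower in both groups given acetate. Heights of cleared groups against Prol and Sen (IR) depend on the TPM scaling.

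With all libraries in the fit, senescence moved few of these genes past the threshold, and more were called in a fit of only the groups compared. CPM values use library sizes scaled by the TMM method, and a gene was called at an edgeR quasi-likelihood adjusted p under 0.05. In Sen (IR) against Prol, 1 member was higher, 1 lower and 7 were not called, beside 26.6% of all genes higher and 30% lower. APOBEC3B was at 7.67, 6.33 and 6.34 CPM in Prol and at 2.65, 2.07 and 3.03 CPM in Sen (IR), with no overlap. It fell 2.60-fold (log2 fold change -1.38 ± 0.17 SE, edgeR adjusted p = 1.14e-07). GBP5, which forms part of the inflammasome response, had 16, 5 and 9 counts in the Sen (IR) libraries against 1, 0 and 0 in Prol. Its ratio of summed counts per depth was 27.96 (95% exact interval for counting error 4.65 to 1141, edgeR adjusted p = 0.0120), and leaving out Prol replicate 3, a library with no GBP5 count, took the edgeR adjusted p to 0.0592. On log2(TPM + 1), a scale that hardly registers so low a gene, its difference was 0.18 and not called (limma adjusted p = 0.427).

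GBP1, the founding member of the family, was at 217, 212 and 218 CPM in Prol and at 143, 145 and 125 CPM in Sen (IR). Every Sen (IR) library was below every Prol library, yet the log2 fold change of -0.65 ± 0.35 was not called with the shared spread (edgeR adjusted p = 0.132). Without combination replicate 2 it was -0.67 ± 0.14 and called (edgeR adjusted p = 0.00137), and 5 members were then called: GBP1, GBP4 and APOBEC3B lower, GBP3 and GBP5 higher. With that library left out, 25.7% of genes were higher and 31.7% lower. GBP2 ranged from 65.2 to 72.6 CPM in Prol and from 50.2 to 60.3 in Sen (IR), and GBP3 from 132 to 139 and from 154 to 158 CPM. Both pairs of groups were apart but not called with all libraries (edgeR adjusted p = 0.281 and 0.169). APOBEC3C lay at 112 to 118 CPM in Prol and 120 to 125 CPM in Sen (IR), a log2 difference of 0.11 ± 0.05 (edgeR adjusted p = 0.0635), and on log2(TPM + 1) it was called higher (0.19, limma adjusted p = 0.00145). APOBEC3F and APOBEC3G overlapped between these groups.

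After CCCP, 8 of the 9 genes were lower in the count fit. In Sen (IR) + CCCP against Sen (IR), 8 members were lower and 0 higher, beside 31.2% of all genes lower and 34% higher. DESeq2 also called 8. GBP2, a member induced by interferon gamma and anchored to membranes by a lipid, went from 60.3, 54.3 and 50.2 CPM to 1.67, 1.16 and 2.65 CPM. It fell 31.3-fold (log2 fold change -4.97 ± 0.34, edgeR adjusted p = 2.08e-08). GBP1 went from 125 to 145 CPM down to 16.8, 16.7 and 19.2 CPM, a fall of 7.87-fold (log2 fold change -2.98 ± 0.40, edgeR adjusted p = 1.83e-05). GBP3 fell less, 1.99-fold (log2 fold change -0.99 ± 0.13, edgeR adjusted p = 1.09e-05), to between 77.3 and 81.2 CPM.

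The rare members nearly vanished. GBP4 had 41, 17 and 23 counts in Sen (IR) and 0, 1 and 0 after CCCP, a ratio of summed counts per depth of 85.4 (95% exact interval for counting error 14.9 to 3416, edgeR adjusted p = 9.46e-06). GBP5 had 30 counts in Sen (IR) and 2 after CCCP, both of them in replicate 3 (ratio 15.8, interval 4.01 to 137, edgeR adjusted p = 0.0122). Without CCCP replicate 2, the fall of GBP5 was no longer called (edgeR adjusted p = 0.0519). A count of 0 in 1 of these libraries allows up to 3 counts, so GBP4 and GBP5 after CCCP are close to the limit of detection.

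Among the deaminases, APOBEC3G, which packages itself into virus particles, went from 4.79, 3.53 and 4.06 CPM to 1.53, 1.49 and 1.63 CPM. It fell 2.69-fold (log2 fold change -1.43 ± 0.33, edgeR adjusted p = 9.98e-04). APOBEC3F fell 1.94-fold (log2 fold change -0.95 ± 0.15, edgeR adjusted p = 2.24e-06), from 5.95 to 7.34 CPM down to 3.05 to 3.66 CPM. APOBEC3C fell 1.35-fold on the count scale (log2 fold change -0.43 ± 0.05, edgeR adjusted p = 7.50e-09). That call depends on the scaling: on log2(TPM + 1) the median of all genes was higher by 0.33 than in the count fit, and APOBEC3C differed by -0.01 (limma adjusted p = 0.896), so relative to the median gene it was lower on both scales. APOBEC3B went the other way, to 3.29, 3.69 and 3.23 CPM, above all 3 Sen (IR) libraries, with a log2 fold change of 0.39 ± 0.18 that was not called (edgeR adjusted p = 0.0613). Without combination replicate 2 it was called higher (0.41 ± 0.16, edgeR adjusted p = 0.0255), and on log2(TPM + 1) it was higher by 0.73 (limma adjusted p = 0.00167).

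Against Prol, 8 genes were lower in the cleared cells and 0 higher, namely GBP1, GBP2, GBP3, GBP4 and, in the count fit, all 4 APOBEC3 genes, with 34.1% of all genes lower and 35.1% higher. The largest of these falls with ample counts were those of GBP2 (log2 fold change -5.28 ± 0.34, edgeR adjusted p = 9.07e-09) and GBP1 (-3.63 ± 0.40, edgeR adjusted p = 2.74e-06). APOBEC3B remained 1.98-fold below Prol (edgeR adjusted p = 7.27e-06). The fall of APOBEC3C, -0.33 ± 0.05 in the count fit, reversed on log2(TPM + 1) to 0.18 (limma adjusted p = 0.00112), where the median gene was shifted by 0.39, and on that scale APOBEC3F was at -0.26 and not called (limma adjusted p = 0.0888). GBP5 had 3 counts or fewer in both groups and is given no fold change.

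**Figure D2:**
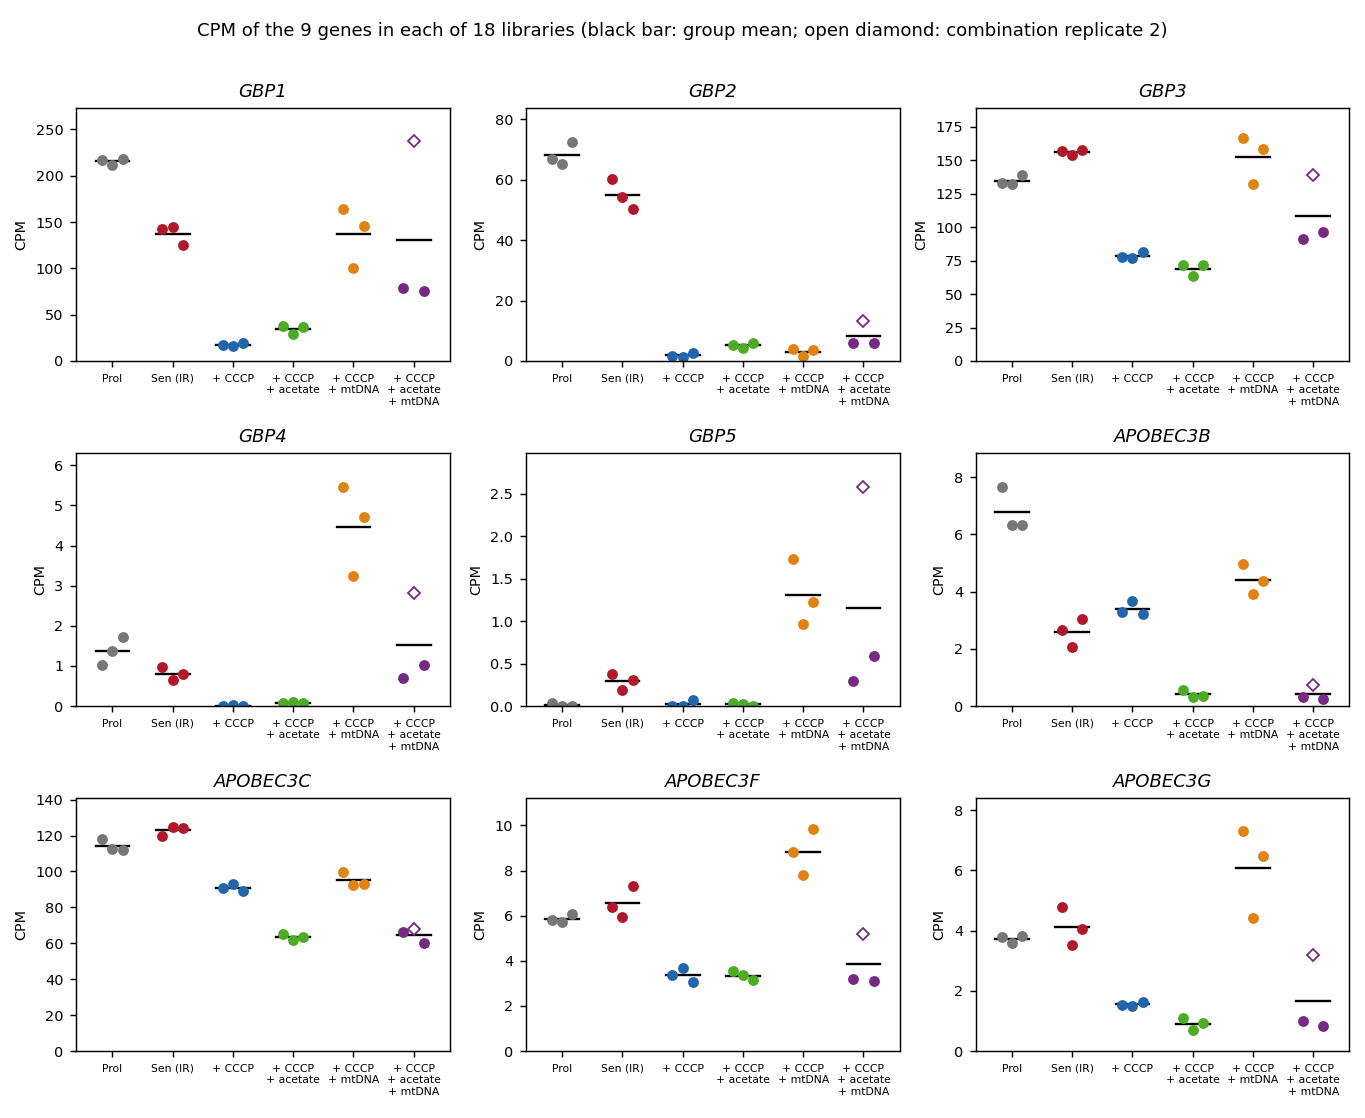
CPM (vertical axes, starting at 0) of each gene in the 18 libraries, with a bar at each group mean and the combination's replicate 2 as an open diamond. After CCCP all 3 libraries of GBP1 lie between 16.7 and 19.2 CPM, with mtDNA between 101 and 164 CPM, and APOBEC3B is lowest in the 2 groups given acetate.

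With all libraries in the fit, acetate given to the cleared cells moved few members past the threshold. Against Sen (IR) + CCCP, GBP2 was higher and APOBEC3B and APOBEC3C were lower, while 6 members were not called, beside 28.8% of all genes higher and 28.3% lower. This comparison shares its 3 control libraries with the 2 mtDNA comparisons that follow. GBP2 was at 5.19, 4.36 and 5.96 CPM with acetate, above the 1.16 to 2.65 CPM without it. It rose 2.95-fold (log2 fold change 1.56 ± 0.41, edgeR adjusted p = 0.00538) and stayed far below the 50.2 to 60.3 CPM of Sen (IR). APOBEC3B dropped to 0.553, 0.308 and 0.357 CPM, from 16, 14 and 17 counts, when the lowest library without acetate was at 3.23 CPM. It fell 8.72-fold (log2 fold change -3.13 ± 0.24, edgeR adjusted p = 8.38e-12), the largest called change of an APOBEC3 gene against the untreated cleared cells. APOBEC3C fell 1.43-fold (log2 fold change -0.52 ± 0.05, edgeR adjusted p = 5.09e-10), to 61.9 to 65.0 CPM.

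GBP1 was at 37.2, 29.3 and 36.8 CPM with acetate, above every CCCP library, with a log2 fold change of 0.98 ± 0.40 that narrowly missed the threshold (edgeR adjusted p = 0.0510). Without combination replicate 2 it was called (0.99 ± 0.17, edgeR adjusted p = 2.75e-04). In that fit 7 members were called, with GBP1, GBP2 and GBP4 higher and GBP3, APOBEC3B, APOBEC3C and APOBEC3G lower, beside 30.1% of genes higher and 27.8% lower. GBP4 had 2, 4 and 4 counts with acetate against 1 in all without it, a ratio of 8.45 (interval 1.20 to 367), and was not called with all libraries (edgeR adjusted p = 0.139). APOBEC3G was at 1.11, 0.683 and 0.944 CPM, below the CCCP libraries, but was called only without combination replicate 2 (-0.78 ± 0.23, edgeR adjusted p = 0.00391). GBP3 and APOBEC3F had log2 fold changes of -0.19 ± 0.13 and -0.02 ± 0.16.

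Transfected mtDNA brought up 6 of the 9 genes and lowered none of them. In Sen (IR) + CCCP + mtDNA against Sen (IR) + CCCP, GBP1, GBP3, GBP4, GBP5, APOBEC3F and APOBEC3G were higher, beside 10.8% of all genes higher and 7.5% lower. The same 6 genes were called higher without combination replicate 2, beside 11.5% of genes higher and 8.47% lower, and DESeq2 called 6 members as well. GBP4 had 151, 90 and 146 counts against 1 in all 3 CCCP libraries, a ratio of summed counts per depth of 461 (95% exact interval for counting error 82.3 to 18260, edgeR adjusted p = 1.93e-08). GBP5 had 48, 27 and 38 counts against 2, a ratio of 67.3 (interval 18.2 to 563, edgeR adjusted p = 2.30e-04). Both genes were above every other library of the series that had not received mtDNA.

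GBP1 was at 164, 101 and 146 CPM with mtDNA and rose 7.83-fold (log2 fold change 2.97 ± 0.40, edgeR adjusted p = 1.71e-04). GBP3 was at 167, 133 and 159 CPM and rose 1.94-fold (0.96 ± 0.13, edgeR adjusted p = 1.45e-04). APOBEC3F was at 8.82, 7.80 and 9.85 CPM, above all libraries of every other group, and rose 2.61-fold (1.39 ± 0.15, edgeR adjusted p = 6.74e-08). APOBEC3G was at 7.30, 4.42 and 6.46 CPM and rose 3.92-fold (1.97 ± 0.32, edgeR adjusted p = 3.02e-04). In each of the 9 genes, replicate 2 was the lowest of the 3 mtDNA libraries.

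GBP2 was the exception among the GBP genes. It was at 3.87, 1.69 and 3.75 CPM with mtDNA, overlapping the 1.16 to 2.65 CPM of the cleared cells, with a log2 fold change of 0.83 ± 0.47 that was not called (edgeR adjusted p = 0.271). APOBEC3B and APOBEC3C were not called either, with log2 fold changes of 0.37 ± 0.17 (edgeR adjusted p = 0.153) and 0.06 ± 0.05 (edgeR adjusted p = 0.425). All 3 APOBEC3B libraries with mtDNA, at 3.92 to 4.95 CPM, were above those without it, and those of APOBEC3C overlapped.

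**Figure D3:**
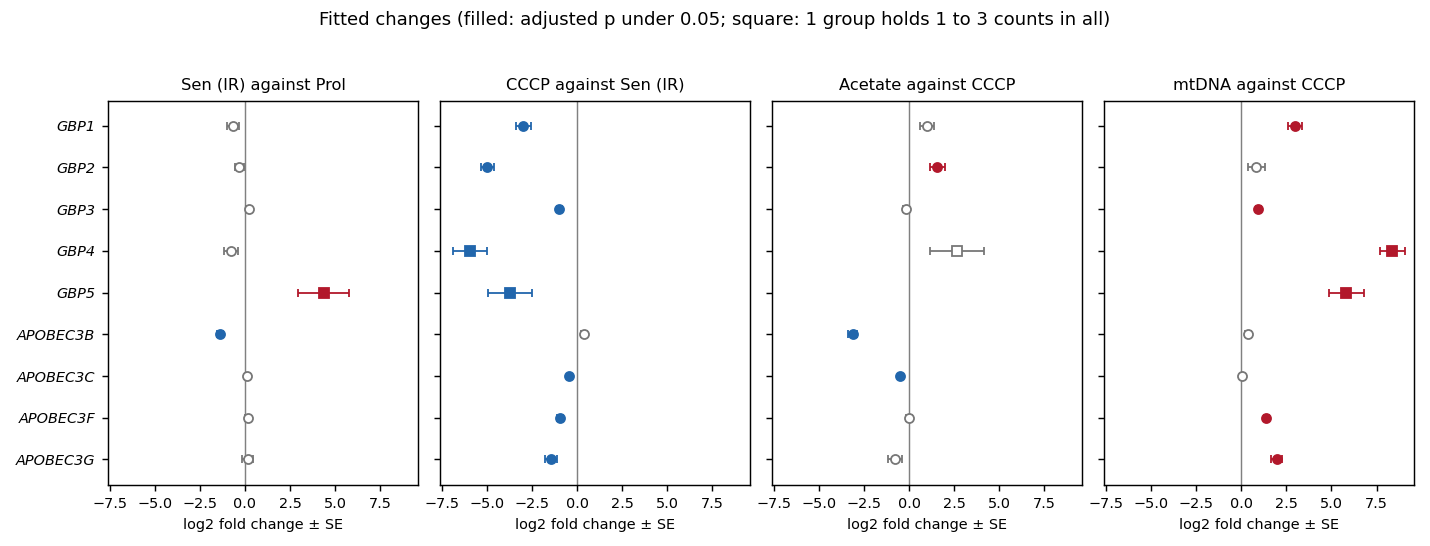
Fitted log2 fold change (horizontal axis, with SE) of each gene in 4 comparisons on 1 scale, filled where the edgeR adjusted p is under 0.05, and square where a group holds only 1 to 3 counts, for which the fitted value depends on a prior count. With CCCP, 8 points lie left of 0 and are filled; with mtDNA, 6 lie right of 0 and are filled; GBP5 is left out of the acetate panel.

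Set beside intact senescent cells, mtDNA overshot for some members and left GBP2 behind. In Sen (IR) + CCCP + mtDNA against Sen (IR), 4 members were higher and 2 lower, with 35% of all genes higher and 32.4% lower. GBP4 was 5.43-fold above Sen (IR) (log2 fold change 2.44 ± 0.35, edgeR adjusted p = 2.29e-06) and GBP5 4.29-fold above it (2.10 ± 0.62, edgeR adjusted p = 0.00539). APOBEC3B was higher by 0.76 ± 0.18 (edgeR adjusted p = 5.44e-04) and APOBEC3F by 0.43 ± 0.14 (edgeR adjusted p = 0.00651) on the log2 scale. APOBEC3G was called higher only without combination replicate 2 (0.55 ± 0.16, edgeR adjusted p = 0.00271). GBP2 was 17.6-fold below Sen (IR) (-4.14 ± 0.32, edgeR adjusted p = 6.89e-08). APOBEC3C was 1.29-fold below it in the count fit only, since on log2(TPM + 1) the difference was -0.02 (limma adjusted p = 0.734) with the median gene shifted by 0.28. GBP1 differed by -0.01 ± 0.35 and GBP3 by -0.04 ± 0.13, with 95% intervals of -0.77 to 0.75 and -0.31 to 0.24. On log2(TPM + 1), GBP1 was at 0.32 (limma adjusted p = 0.380) and GBP3 at 0.31 and called (limma adjusted p = 0.0182), about the shift of the median gene.

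With both agents, the GBP genes were higher than in the cleared cells and no APOBEC3 gene was called higher. In the combination against Sen (IR) + CCCP, all 5 GBP genes were higher and APOBEC3B and APOBEC3C were lower, beside 30.1% of all genes higher and 31.3% lower. GBP1 was at 79.0, 237 and 75.4 CPM, GBP2 at 5.86, 13.3 and 5.85 CPM and GBP3 at 91.0, 139 and 96.1 CPM. In each of these genes replicate 2 was the highest library, and the other 2 were close to each other. GBP4 had 26, 69 and 29 counts and GBP5 11, 63 and 17. The log2 fold change was 2.89 ± 0.40 for GBP1 (edgeR adjusted p = 2.89e-05), 2.21 ± 0.40 for GBP2 (edgeR adjusted p = 3.22e-04) and 0.46 ± 0.13 for GBP3 (edgeR adjusted p = 0.00709). Without replicate 2 these were 2.16 ± 0.18, 1.75 ± 0.30 and 0.26 ± 0.07, and all 5 GBP genes were still called higher, beside 29% of genes higher and 28.2% lower.

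APOBEC3B in the combination was at 0.300, 0.738 and 0.245 CPM, 8.37-fold below the cleared cells (log2 fold change -3.07 ± 0.26, edgeR adjusted p = 4.11e-11). APOBEC3C was 1.40-fold below them (-0.49 ± 0.05, edgeR adjusted p = 1.56e-09). Neither gene was called in the combination against acetate alone, with log2 fold changes of 0.059 ± 0.365 and 0.029 ± 0.05. APOBEC3G was at 0.981, 3.20 and 0.840 CPM and had a log2 fold change of 0.03 ± 0.38. Without replicate 2 this became -0.74 ± 0.27 and was called lower (edgeR adjusted p = 0.0185). APOBEC3F had a log2 fold change of 0.16 ± 0.16, and of -0.09 without replicate 2, neither called.

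Adding mtDNA to acetate-treated cells raised 4 GBP genes and no APOBEC3 gene. In the combination against acetate alone, GBP1 (1.92 ± 0.37, edgeR adjusted p = 0.00477), GBP3 (0.65 ± 0.13, edgeR adjusted p = 0.00505), GBP4 (4.08 ± 0.57, edgeR adjusted p = 6.01e-05) and GBP5 were higher on the log2 scale, beside 6.55% of all genes higher and 6.21% lower. GBP5 had 91 counts against 2, a ratio of 61.9 (interval 16.7 to 519, edgeR adjusted p = 5.65e-04). The same 4 were called without replicate 2, with 1.17 ± 0.17 for GBP1, 0.44 ± 0.07 for GBP3, 3.32 ± 0.46 for GBP4 and 4.45 ± 0.83 for GBP5, beside 5.04% of genes higher and 4.59% lower. GBP2 overlapped acetate alone (0.65 ± 0.33, edgeR adjusted p = 0.231).

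With acetate as well as mtDNA, most of the genes were lower than with mtDNA alone. In the combination against mtDNA alone, 6 members were lower and GBP2 was higher, beside 29.7% of all genes lower and 27.4% higher. APOBEC3B was 10.8-fold lower (log2 fold change -3.44 ± 0.25, edgeR adjusted p = 3.42e-12), APOBEC3G 3.83-fold (-1.94 ± 0.33, edgeR adjusted p = 7.44e-05) and APOBEC3F 2.34-fold (-1.23 ± 0.15, edgeR adjusted p = 4.04e-08). GBP4 was 3.09-fold lower (-1.63 ± 0.33, edgeR adjusted p = 2.08e-04), with all 3 libraries below those of mtDNA alone. GBP3 was 1.41-fold lower (edgeR adjusted p = 0.00454), although its replicate 2 lay within the range of mtDNA alone. GBP2 was 2.60-fold higher (1.38 ± 0.37, edgeR adjusted p = 0.00636). GBP1 had a log2 fold change of -0.08 ± 0.35 with all libraries and of -0.81 ± 0.17 without replicate 2, where it was called (edgeR adjusted p = 0.00121), and 9 of 9 members were called in that fit, beside 26.5% of genes higher and 27.4% lower. Also without replicate 2, APOBEC3G was at -2.71 ± 0.23, GBP4 at -2.38 ± 0.28 and GBP5 at -1.56 ± 0.47, whereas GBP5 was at -0.25 ± 0.53 and not called with all libraries (edgeR adjusted p = 0.709). APOBEC3B was then at -3.97 ± 0.27 and GBP2 at 0.92 ± 0.28.

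Whether mtDNA acted differently with acetate was tested as an interaction, the log2 change with mtDNA given acetate minus that without it. With all libraries, APOBEC3F was the 1 member called (-1.21 ± 0.21, edgeR adjusted p = 0.00362), beside 0.583% of all genes called with a smaller change under acetate and 0.0883% with a larger one. It was at 3.19, 5.21 and 3.12 CPM in the combination and at 3.53, 3.37 and 3.13 CPM with acetate alone. Without replicate 2, GBP1 (-1.80 ± 0.24, edgeR adjusted p = 0.00104), GBP3 (-0.52 ± 0.09, edgeR adjusted p = 7.61e-04), APOBEC3G (-1.93 ± 0.33, edgeR adjusted p = 4.29e-04) and GBP4 were called as well, all with a smaller change under acetate, beside 1.92% and 0.44% of genes in the smaller and larger direction. With all libraries GBP1 was at -1.05 ± 0.53 (edgeR adjusted p = 0.498), APOBEC3G at -1.15 ± 0.52 (edgeR adjusted p = 0.436) and GBP3 at -0.31 ± 0.18 (edgeR adjusted p = 0.579). GBP2, APOBEC3B and APOBEC3C were not called in either fit.

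**Figure D4:**
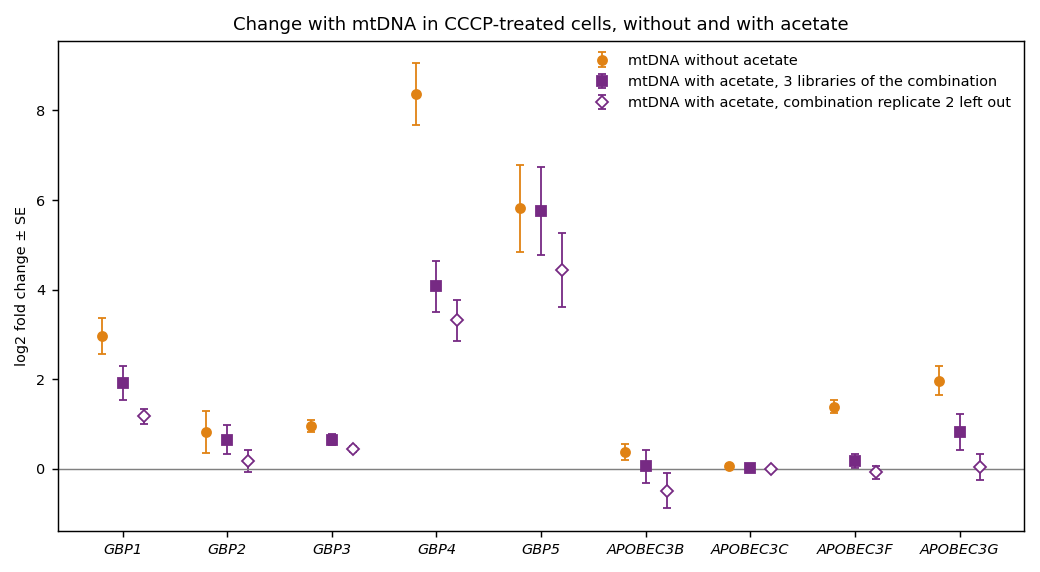
Fitted log2 fold change with mtDNA (vertical axis, with SE) in cleared cells without acetate (circles), with acetate (squares), and with acetate when combination replicate 2 is left out (diamonds). For APOBEC3G the 3 values are 1.97, 0.82 and 0.04, and for GBP1 2.97, 1.92 and 1.17; values of GBP4 without acetate and of GBP5 rest on groups with 1 or 2 counts.

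Against intact senescent cells, the combination left 6 members lower and GBP5 higher, with 34.6% of all genes lower and 32.2% higher. GBP2 was 6.79-fold below Sen (IR) (log2 fold change -2.76 ± 0.28, edgeR adjusted p = 1.16e-06), where the log2 fold change was -4.97 after CCCP alone and -4.14 with mtDNA. APOBEC3B was 6.38-fold below (edgeR adjusted p = 9.23e-10), APOBEC3G 2.63-fold (edgeR adjusted p = 0.00145), APOBEC3C 1.90-fold (edgeR adjusted p = 1.45e-15), APOBEC3F 1.74-fold (edgeR adjusted p = 3.24e-05) and GBP3 1.44-fold (edgeR adjusted p = 0.00229). GBP5 was called higher (1.85 ± 0.63, edgeR adjusted p = 0.0145) only with replicate 2: without it the log2 fold change was 0.56 (edgeR adjusted p = 0.376). GBP1 was at -0.08 ± 0.35 with all libraries and at -0.80 ± 0.17 (edgeR adjusted p = 9.90e-04) without replicate 2. In that fit APOBEC3G was at -2.15 ± 0.23, against -1.40 ± 0.33 with all libraries, and GBP4 at 0.08 ± 0.32 against 0.81 ± 0.39, neither of the GBP4 values called.

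The order of the groups differed between genes. GBP1 was highest in Prol, then in Sen (IR), mtDNA and the combination, whose libraries overlapped in that order, then acetate and CCCP, each apart from the next. GBP2 was high in Prol and Sen (IR) and low in all 4 cleared groups, where the combination overlapped acetate and mtDNA overlapped CCCP. GBP4, APOBEC3F and APOBEC3G were highest with mtDNA, and for GBP4 and APOBEC3F no other group overlapped it. GBP5 was highest with mtDNA and the combination, which overlapped. APOBEC3B was highest in Prol, followed by mtDNA, CCCP and Sen (IR) with no overlap between neighbours, and lowest in acetate and the combination, which overlapped each other only. GBP3 was highest in Sen (IR), mtDNA and Prol, each overlapping the next, and lowest in CCCP and acetate. APOBEC3C was highest in Sen (IR) and lowest in the same 2 acetate groups.

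Across the 18 libraries, Pearson's r of log2 CPM, given as a description because the libraries share groups and scaling, was highest among members for APOBEC3F and APOBEC3G (0.95), GBP3 and APOBEC3G (0.93), GBP3 and APOBEC3F (0.90), and GBP1 and GBP4 (0.90). GBP2 and GBP5 had r = -0.05, and APOBEC3B had 0.33 with GBP1 and 0.87 with APOBEC3C. Of all other tested genes, those most like APOBEC3B were BIRC5, TTK and NEK2 (r = 0.99, 0.98 and 0.98), which act in mitosis. Those most like GBP4 were IFITM1, PML and XAF1 (0.98, 0.98 and 0.98), and those most like GBP5 were IFIT5, IFIT3 and RSAD2 (0.96, 0.95 and 0.95), all known interferon-stimulated genes. GBP3 was nearest to APOL2, MOV10 and PHF11, GBP1 to ATP10A, LY6E and C6orf62, and APOBEC3G to TLR3, a sensor of double-stranded RNA, to MAB21L2 and to APOBEC3F. APOBEC3F was nearest to APOBEC3G, TLR3 and APOL2. GBP2 had other neighbours, IL32, LACTB and SLC2A10 (0.99, 0.99 and 0.99), as had APOBEC3C with SUSD1, LRRC59 and MARVELD1. Without combination replicate 2, all 3 neighbours were kept by GBP1, GBP3, GBP5, APOBEC3F and APOBEC3G, and 2 of 3 by the other 4.

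The genes that carry interferon signals to the GBP promoters, or limit those signals, moved in part with the GBP genes. Of a list of 18 such genes, 16 were tested, with a median log2 fold change with mtDNA of 0.67, against 0.00 over all genes. Of the 16, 10 were higher and 0 lower with mtDNA, beside 10.8% of all genes higher and 7.5% lower. Among them were USP18 (3.65, edgeR adjusted p = 3.24e-05), which limits interferon signalling, and, from 25, 32 and 28 counts against 0 in all CCCP libraries, IFNB1 (edgeR adjusted p = 0.00911). IFNB1 had 0 counts in every group without mtDNA and passed the filter on low counts only through groups given it. Its place among the 10 thus rests on the groups where it was high. IFNG was at 0 in the groups compared. With CCCP against Sen (IR), 9 were lower and 2 higher, beside 31.2% of all genes lower and 34% higher. The median was -0.53, against 0.03 over all genes. The feedback inhibitors SOCS1 (-3.99) and USP18 (-1.62) were among those that fell, and SOCS3 and JAK2 rose. With acetate, 5 of the 16 were higher and 1 lower, beside 28.8% of all genes higher and 28.3% lower. IRF1, a driver of GBP transcription, was higher (1.00, edgeR adjusted p = 9.85e-06), as were IFNAR2 and IFNGR2. In the combination against acetate alone, 9 were higher and 0 lower, beside 6.55% of all genes higher and 6.21% lower.

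Partners and relatives of the GBP proteins were tested for 14 of 16 genes. With mtDNA, 7 were higher and 0 lower (median 0.43), beside 10.8% of all genes higher and 7.5% lower. Largest were the dynamin-like MX1 (9.01, edgeR adjusted p = 5.52e-06) and MX2 (5.61, edgeR adjusted p = 5.96e-05). The ring finger protein RNF213 (1.93, edgeR adjusted p = 5.95e-04) and the pyroptosis gene CASP1 were also higher. With CCCP against Sen (IR), 6 were lower and 3 higher, beside 31.2% of all genes lower and 34% higher. MX1 (-5.20) and MX2 (-3.08) were among the lower ones. With acetate, 2 were higher and 4 lower, beside 28.8% of all genes higher and 28.3% lower. The lower ones included ATL1, ATL2 and ATL3, GTPases that fuse the endoplasmic reticulum.

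For APOBEC3B, the DREAM and cell cycle list moved with it in part. In Sen (IR) against Prol, 11 of 18 genes were lower and 3 higher, beside 30% of all genes lower and 26.6% higher. The median was -0.27, against -0.01 over all genes. MKI67 (-1.95), TOP2A (-1.64) and MYBL2 (-1.33) were lowest, and the CDK inhibitor CDKN1A was higher (0.51). With CCCP against Sen (IR), 13 were higher and 2 lower (median 0.65), beside 34% of all genes higher and 31.2% lower. With acetate against CCCP, 12 were lower and 2 higher (median -1.01), beside 28.3% of all genes lower and 28.8% higher. MKI67 (-3.23), FOXM1 (-2.92) and CDK1 (-2.81) fell most, and CDKN1A and RBL2 rose. With mtDNA against CCCP, 1 was higher and 0 lower (median -0.10), beside 10.8% of all genes higher and 7.5% lower. The list of uracil repair genes, which act on what the deaminases make, also held the nucleotide enzymes DUT and SAMHD1. It was split near the shares of all genes with CCCP against Sen (IR). Of 10, 4 were higher and 3 lower. With mtDNA 1 was higher, the nucleotide phosphohydrolase SAMHD1 (2.61, edgeR adjusted p = 1.01e-05), and 1 lower, TDG (-0.17, edgeR adjusted p = 0.0195). These lists were chosen with earlier results known and are given as counts.

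Of 11 further members of the 2 families, 2 were tested, GBP1P1 and APOBEC3D. GBP1P1, a pseudogene copy of GBP1 that shares some of its sequence, was at 0.375 CPM in Sen (IR), at 0 in all CCCP libraries and at 1.93 CPM with mtDNA. APOBEC3D was called higher with acetate (0.92, edgeR adjusted p = 0.00864) and in the combination (1.05) against CCCP, lower in CCCP against Prol (-0.80), and was not called in the other comparisons. The others, among them GBP6, GBP7, APOBEC3A, APOBEC3H, APOBEC1, APOBEC2 and APOBEC4, were too low to test.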

How the data were processed

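Poly(A) RNA of the 18 libraries was sequenced as paired reads, and the authors used, per the labels, Trimmomatic v0.36 for trimming, STAR v2.5.2b for alignment (GRCh38) and featureCounts (Subread v1.5.2) for exonic counts of reads with a single alignment. The authors deposited these raw counts, used for every test, and TPM for the same genes, used for levels per length. The strand setting and annotation release are not given in the sources used here, so reads of a gene and an antisense partner cannot be told apart. Libraries were grouped by their labels, and 0 columns were left without a sample.

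edgeR 4.0.16 in R 4.3.3 fitted 1 robust quasi-likelihood model with 6 group means to the counts of 16994 genes that passed filterByExpr by group, with TMM normalization, and 11 contrasts were adjusted by Benjamini-Hochberg over all genes. The common biological coefficient of variation was 0.0644, with 12 residual degrees of freedom. SE is the log2 fold change over the square root of its F. Where a group held 1 to 3 counts in all, the ratio of summed counts per depth is given with its exact conditional 95% interval, and no fold where both groups held 3 counts or fewer. Intervals cover counting error only. Correlations used log2 CPM with a prior count of 2. The procedure was tested on simulated counts with changes in few genes of a single group and no library set apart. That setting is simpler than these data and does not cover the effect of combination replicate 2. Replicate numbers gave no sign of pairing between libraries of different groups: 0 of 45 same-number correlations of deviations were over 0.1. The lowest chi-square per degree of freedom between replicates was 2.78, so no 2 libraries were alike within sampling noise.

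Alternatives were DESeq2 1.42.0 (size factors, Wald test), limma 3.58.1 on log2(TPM + 1), no filter or at least 10 counts in every library (13249 genes, 6 members), a fit of only the groups compared, removal of genes that mtDNA encodes, a replicate block, and each library left out. The text names all 9 members, the 3 genes most like each, and up to 3 genes a direction with the largest change from fixed lists, with further list genes (IRF1, IFNG, CASP1, RBL2 and others) named after their values were seen. Members and lists were chosen with earlier results of these data known. Sequences are from RefSeq, positions from GENCODE 44, and figures were drawn with matplotlib 3.10.9 in Python 3.11.15. Some genes of these lists are not reported here, though the lists' counts and medians include them.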

Additional observations from a re-analysis of the deposited data

Results flagged for a closer look

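The change of APOBEC3F with mtDNA differed with and without acetate. The interaction, the log2 change with mtDNA given acetate minus that without it, was -1.21 ± 0.21 (SE, n = 3 libraries per group), and its edgeR quasi-likelihood p, adjusted over all genes, was 0.00362. All 3 mtDNA libraries were above all 3 CCCP libraries, and the combination overlapped acetate alone. Its call held with each library left out in turn.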

How the results depend on the processing

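Of the values recomputed with 1 library left out, 1667 kept their direction and side of the threshold, 34 turned, 24 passed the threshold and 3 no longer did. Under other settings these were 682, 12, 27 and 11, counting changes of single members. The number of members called in Sen (IR) against Prol, 2, was 1 with at least 10 counts in every library, where fewer members were tested, and 6 in a fit of only the groups compared, and ranged from 1 to 5 with 1 library left out. For acetate against CCCP, 3 became 5 on log2(TPM + 1) and 6 in a fit of only the groups compared, and ranged from 3 to 7. With at least 10 counts in every library, the combination had 4 called in place of 7 against CCCP and 2 in place of 4 against acetate, and mtDNA 3 in place of 6 against Sen (IR). The combination against acetate had 1 in a fit of only the groups compared, and the interaction 2 with no filter and 1 to 5 with 1 library left out. The lowest and highest numbers were otherwise 7 and 9 for CCCP against Sen (IR), 7 and 9 for the combination against mtDNA, 6 and 7 for mtDNA against Sen (IR), and 7 and 8 for the combination against CCCP and against Sen (IR). The upper values of 5 and 7 in Sen (IR) against Prol and acetate against CCCP, and of 5 in the interaction, came without combination replicate 2. Directions that turned, on the log2 scale, were as follows. On log2(TPM + 1), APOBEC3C was at 0.18 in CCCP against Prol, at -0.01 with mtDNA against CCCP, at -0.01 in the combination against acetate and at 0 in the interaction, APOBEC3G was at -0.12 in the combination against CCCP, APOBEC3B at -0.02 in the combination against acetate, and GBP2 at 0.03 in the interaction. On that scale GBP1 was at 0.32 and GBP3 at 0.31 with mtDNA against Sen (IR), and GBP1 at 0.01 in the combination against Sen (IR). With 1 library left out, values ranged from -0.06 to 0.07 for APOBEC3F in acetate against CCCP, from -0.74 to 0.36 for APOBEC3G and from -0.09 to 0.31 for APOBEC3F in the combination against CCCP. Against acetate, the combination ranged from -0.49 to 0.31 for APOBEC3B, from -0.01 to 0.08 for APOBEC3C and from -0.08 to 0.31 for APOBEC3F, and against mtDNA from -0.81 to 0.22 for GBP1 and from -1.56 to 0.27 for GBP5. Against Sen (IR), GBP1 ranged from -0.14 to 0.18 and GBP3 from -0.09 to 0.07 with mtDNA, and GBP1 from -0.80 to 0.22 in the combination. In the interaction, GBP2 ranged from -0.65 to 0.08 and APOBEC3C from -0.07 to 0.01. GBP1 with mtDNA against Sen (IR) was at 0.01 with no filter. The cause was not tested.

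With the replicate number as a block, the same numbers of members were called as without it in each of the 11 comparisons (2 in Sen (IR) against Prol, 8 in CCCP against Sen (IR), 6 with mtDNA against CCCP), and GBP1 with mtDNA against Sen (IR) moved from -0.01 to 0.01. None of the 45 same-number correlations was over 0.1, which gave no sign of pairing but cannot show whether libraries were processed together. Depth limits GBP4 and GBP5, which had 0 to 4 counts per library after CCCP alone or with acetate.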
